A study of Homo sapiens with 38 samples.

Results

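Whether the loss of AGO1 and AGO2 together changes cytoplasmic RNA by more or by less than the separate losses add up to was examined in 12 of the 38 samples of the series. These were RNA-seq libraries of the cytoplasmic fraction of HCT116, a human colorectal carcinoma cell line, in 4 groups of 3: unedited wild-type cells (WT), cells with the genotype AGO1-/- (A1), cells with AGO2-/- (A2), and cells with AGO1-/- and AGO2-/- (A12). The libraries were chosen by the fraction and genotype in their titles. Each edited genotype was a single line made by CRISPR editing, all lines grew in the same serum-supplemented medium, and the 3 libraries of a line came from successive passages: 27 to 29 for WT, 6 to 8 for A1, 8 to 10 for A2 and 9 to 11 for A12. Clone and passage number therefore cannot be told apart from genotype, and p-values measure only the spread between passages of a line.

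Argonaute (AGO) proteins hold microRNAs (miRNAs) and are guided by them to complementary sites, mostly in the 3′ untranslated regions (3′ UTRs) of messenger RNAs. Pairing rests on the seed, the short stretch near the 5′ end of the miRNA, and usually lowers translation and shortens the life of the messenger RNA. Human cells have 4 AGO proteins that load largely the same miRNAs. AGO2 can also cut its targets, and the study describes AGO4 protein in these cells as barely detectable. Where 2 proteins do the same work, losing either may change little and losing both may change much, so that the double knockout departs from the sum of the single ones.

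For each gene the departure was the interaction contrast, defined as the log2 change in A12 minus the log2 changes in A1 and in A2, all against WT. A contrast of 0 means that A12 sat at the additive level, which is the WT level multiplied by the fold changes of both single knockouts. Positive values put A12 above that level and negative values below it. Reads assigned to the transcripts of a gene were summed and tested with edgeR's quasi-likelihood test over the 12 libraries. Genes with an adjusted p (Benjamini-Hochberg) no higher than 0.05 are termed called. Levels are given as CPM, read counts scaled by edgeR to the same total in every library, which are comparable for one gene across libraries but not between genes of different length. All 3 changes share the WT libraries, so a shift that the edited lines have in common against WT enters the contrast with the opposite sign.

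WT libraries were the shallowest, with 39476205 to 43281746 estimated reads, against 66451720 to 77898671 in A1 and A2 and 77510510 to 79731793 in A12. Among WT libraries, passage 29 stood apart: its counts differed from those of passages 27 and 28 with a chi-square per gene of 96.0 and 89.7, against 8.58 between passages 27 and 28. In A12 the widest gap was between passages 10 and 11, with a chi-square per gene of 160.0. No pair of libraries agreed within sampling noise. Of 10 colon epithelial markers, CDX1 was below 0.01 CPM in every group, LGALS4 in WT and VIL1 in A2, and the summed level of the list ran from 1969 to 2859 CPM over the 12 libraries. The 10 blood markers summed to between 0.422 and 1.57 CPM in WT, A1 and A2 and to between 4.99 and 8.31 in A12, where PTPRC, MS4A1, CD3D, CD14 and CD3E stayed below 0.01 CPM. The A12 sum came mostly from 2 genes that passed the test, LYZ, which codes for lysozyme (1.96 to 3.96 CPM in A12, at most 0.180 elsewhere), and HBA1, an alpha globin gene with a near-identical neighbor (2.84 to 4.43 CPM, at most 1.38 elsewhere). The 10 fibroblast and endothelial markers summed to 4.25 to 8.70 CPM over all 12 libraries, with DCN, PDGFRA, LUM, COL1A2 and CDH5 below 0.01 CPM in every group.

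The RNA of the edited genes was compared with the labels first. AGO1 (chr1:35869808-35930532, plus strand, GRCh38) had 159, 158 and 141 CPM in WT, 13.4, 14.4 and 13.2 in A1, 171, 174 and 173 in A2, and 15.8, 17.2 and 17.3 in A12. The A1 and A12 libraries did not overlap WT or A2, and the contrast, 0.12 ± 0.0952 (SE), was not called (edgeR, adjusted p = 0.369). AGO2 (chr8:140520156-140635633, minus strand) had 419.8, 409 and 361 CPM in WT, 410.4, 407 and 389.5 in A1, 253, 246 and 251 in A2, and 471, 530.3 and 473 in A12. Its RNA was thus lowest in A2 and highest in A12, although both lines are labelled AGO2-/-, and its contrast of 0.95 ± 0.0990 was called (edgeR, adjusted p = 2.28e-05). Editing can leave a transcript that makes no protein, and RNA levels say nothing of the protein. The study examined AGO proteins in its knockout lines by western blot, which is separate from these libraries. AGO3, which was not edited here, had a contrast of 0.03 ± 0.115 (edgeR, adjusted p = 0.861), with a log2 change against WT of 0.28 in A2 and 0.37 in A12. AGO4 had 12.8, 13.5 and 15.8 CPM in WT, 9.10, 11.6 and 13.3 in A1, 9.95, 12.1 and 13.5 in A2, and 19.6, 20.4 and 26.1 in A12. All A12 libraries lay above the 9 others, with a contrast of 1.21 ± 0.226 (edgeR, adjusted p = 0.00135).

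Of 17336 genes tested, 6407 (37.0%) departed from additivity, 3289 (19.0%) above the additive level and 3118 (18.0%) below it. Changes against WT were called for 1809 genes in A1 (10.4%), 2358 in A2 (13.6%) and 8232 in A12 (47.5%), of which 4003 (23.1% of those tested) were higher and 4229 (24.4%) lower. The departures were moderate in size: the median size was 0.74 on the log2 scale over called genes, with quartiles of 0.50 and 1.20, and 2098 genes (12.1% of those tested) departed by at least 2-fold. Over all genes the median contrast was -0.008. In 6022 genes (34.7%) the 3 A12 libraries lay outside the range of the other 9, above it in 2995 and below it in 3027. Over all genes tested, A12 differed from both single knockouts in the same direction, each by its own test, in 5907 (34.1%). With WT passage 29 left out the count was 6688, and without the genes of chromosome 8 it was 6106.

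Calls against WT were then set beside the contrast. They do not show which line made the departure, since a line not called may still have changed and WT enters every change. For 3377 of the 6407 genes, A12 was called against WT and neither single knockout was (1526 higher and 1851 lower in A12). Over all 17336 genes tested, called or not for the contrast, 5828 (33.6%) had this pattern. In 321 genes only the A1 change was called, and in 330 only the A2 change, so that a change seen with 1 gene lost was not called when both were lost. Over all genes tested these patterns were seen in 476 (2.75%) and 545 (3.14%). In 979 genes no line was called against WT and only the contrast passed, out of 7939 genes tested with no line called. A further 91 genes, termed plateau genes, changed one way in all 3 lines with a contrast of the opposite sign. In these A12 changed by less than the sum of the single changes, though it may have changed by more than either. A shift that the edited lines share against WT gives the same pattern and cannot be told apart from it.

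**Figure D1:**
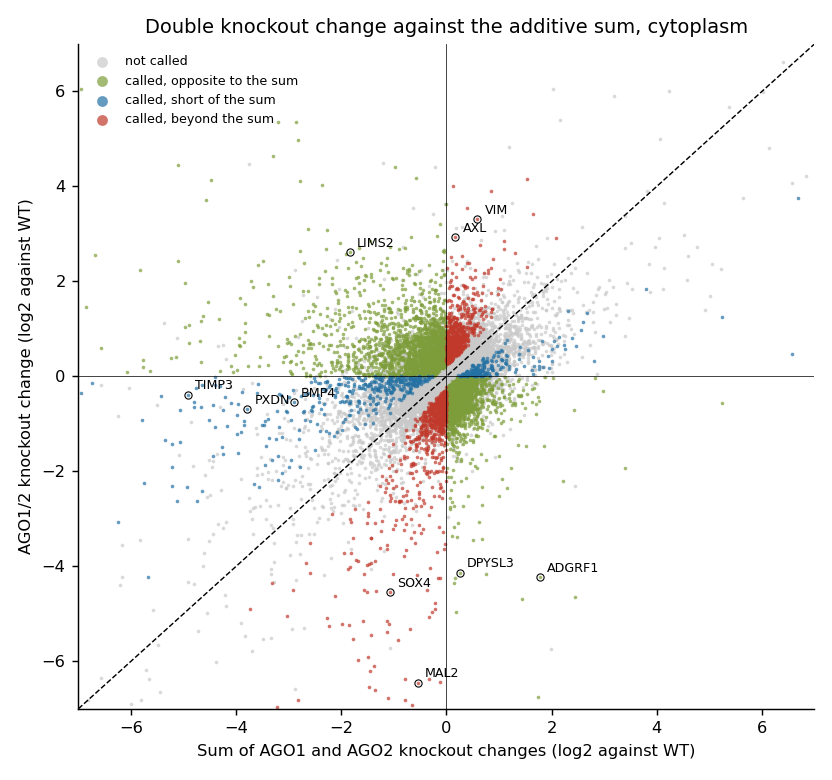
Each point is a gene, with the sum of its log2 changes in A1 and A2 on the horizontal axis and its log2 change in A12 on the vertical axis, all against WT in the cytoplasm; the dashed line marks additivity, gray points were not called, and points beyond 7 on either axis are not drawn. Called genes leave the line on both sides, 3289 above it and 3118 below, many of them with a sum close to 0.

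Called genes were sorted by the sum of the single changes. In 1523 genes A12 moved beyond the sum in its direction, in 620 it moved that way but fell short, and in 4264 it moved the opposite way. Most sums were small: the sum itself passed the test in 1336 of the genes tested and in 868 of those called. Among these 868, 107 went beyond the sum, 378 fell short and 383 were opposite. The class of a gene whose sum is close to 0 therefore rests on a small number, and sums are given for the genes described by class. Where the sum passed but the contrast did not, in 468 genes, A12 was not distinguishable from additivity.

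The 5 beyond-additive increases with the largest contrasts were those of COL13A1, AXL, VIM, IGFBP6 and LOXL4, whose sums of single changes were 0.39, 0.17, 0.59, 0.01 and 0.18. AXL, a receptor tyrosine kinase (chr19:41219223-41261766), had 41.9, 39.5 and 84.8 CPM in WT, 55.0, 43.5 and 43.2 in A1, 84.8, 68.8 and 65.6 in A2, and 425, 529 and 316 in A12. The additive level was 62.3 CPM, and the contrast was 2.76 ± 0.381 (edgeR, adjusted p = 1.72e-04), with all A12 libraries above the 9 others. VIM codes for vimentin, the intermediate filament of mesenchymal cells (chr10:17228241-17237593). Its levels were 3.26, 2.33 and 4.12 CPM in WT, 6.28, 6.65 and 7.54 in A1, 2.23, 2.29 and 2.40 in A2, and 31.5, 32.8 and 31.8 in A12, against an additive level of 4.87. A1 alone was called above WT, by 1.08, and the contrast was 2.72 ± 0.214 (edgeR, adjusted p = 2.69e-06). COL13A1, a transmembrane collagen, went from 1.31, 1.71 and 5.56 CPM in WT to 30.9, 33.6 and 36.4 in A12, with 2.39 to 4.38 in the 6 single knockout libraries and a contrast of 3.16. IGFBP6, a binding protein for insulin-like growth factors, had 13.1 to 14.3 CPM in WT, 9.51 to 10.4 in A1, 16.6 to 21.0 in A2 and 56.3 to 72.9 in A12 (contrast 2.27). LOXL4, a lysyl oxidase that cross-links matrix, had 6.85 to 8.68 CPM in A12 and at most 2.697 elsewhere (contrast 2.20). In all 5 genes the highest of the 3 WT libraries was passage 29.

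Beyond-additive decreases included genes whose RNA was nearly lost in A12. The sums were -0.54 for MAL2, -0.36 for TMEM200A, -0.13 for RECQL, -0.03 for PWWP3B and -1.07 for SOX4. MAL2, a transcytosis protein of epithelial cells (chr8:119165034-119245673), had 143, 143 and 158 CPM in WT, 111, 98.1 and 83.5 in A1, 141, 174 and 148 in A2, and 1.75, 1.56 and 1.77 in A12. The additive level was 101.6 CPM and the contrast -5.90 ± 0.168 (edgeR, adjusted p = 6.23e-10). SOX4, a transcription factor (chr6:21593751-21598619), had 249, 312 and 204 CPM in WT, 180.1, 199 and 216 in A1, 143, 161 and 165 in A2, and 9.72, 8.30 and 14.6 in A12, against an additive level of 122 (contrast -3.48 ± 0.272; edgeR, adjusted p = 2.60e-06). RECQL, a DNA helicase, held 32.7 to 40.6 CPM in the 9 other libraries and 1.77 to 2.09 in A12 (contrast -4.12). TMEM200A had 37.9 to 43.3 CPM in WT, 112 to 114 in A1, 9.99 to 12.5 in A2 and 1.64 to 1.91 in A12, so the single knockouts moved in opposite directions (1.48 and -1.85) and A12 went below both (contrast -4.14). PWWP3B fell from 9.90 to 12.5 CPM in WT to 0.643 to 1.23 in A12 (contrast -3.49). In each of these 5 genes all A12 libraries lay below the 9 others.

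The genes that fell furthest short of an additive increase were SPECC1L-ADORA2A, GALNT5, TFR2, COL12A1 and SIX5, with sums of 2.68, 2.04, 1.31, 1.38 and 1.20. GALNT5, which starts O-linked glycosylation (chr2:157257705-157318491), had 8.43, 7.99 and 8.57 CPM in WT, 16.1, 14.8 and 13.0 in A1, 19.96, 18.1 and 20.5 in A2, and 14.6, 15.3 and 12.3 in A12. Every edited library was above WT, and A12 overlapped A1 in place of reaching the additive 34.3 CPM (contrast -1.29 ± 0.145; edgeR, adjusted p = 4.13e-05). COL12A1, a fibril-associated collagen, also had A12 above WT and overlapping one single knockout, with 70.6 to 85.3 CPM in WT, 128 to 139 in A1, 103 to 119 in A2 and 85.5 to 107 in A12 (contrast -1.01). TFR2, transferrin receptor 2, was above WT in A1 (0.60) and A2 (0.71) and not called in A12 (0.10), with a contrast of -1.21. SIX5, a homeobox gene, had a contrast of -0.99 that was not called without A2 passage 10 (-0.88). SPECC1L-ADORA2A is a readthrough of neighboring genes that shares reads with both, so its contrast of -1.35, not called without A2 passage 9 (-1.21), is uncertain.

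Other genes were lower in A12 than in WT by less than the single decreases add up to. The sums were -3.79 for PXDN, -3.85 for RUNX2, -3.91 for SLCO3A1, -2.49 for PTGS1 and -2.90 for BMP4. PXDN, a peroxidase of the basement membrane (chr2:1631887-1744852), had 35.1, 35.8 and 35.6 CPM in WT, 21.8, 23.2 and 23.8 in A1, 4.03, 4.03 and 3.88 in A2, and 21.5, 19.3 and 25.4 in A12. A12 overlapped A1 and was far above A2, and above the additive 2.57 CPM (contrast 3.10 ± 0.130; edgeR, adjusted p = 1.80e-08). BMP4, a secreted signaling protein (chr14:53949736-53958761), had 209, 216 and 147 CPM in WT, 97.3, 104 and 93.8 in A1, 47.3, 49.7 and 51.0 in A2, and 129, 123.2 and 141 in A12, so A12 lay between WT and both single knockouts (contrast 2.36 ± 0.171; edgeR, adjusted p = 1.56e-06). RUNX2, a transcription factor of bone, fell by 1.35 in A1, by 2.5 in A2 and by 0.93 in A12 (contrast 2.92). SLCO3A1, an organic anion transporter, fell by 1.68, by 2.23 and by 1.17 in the same order (contrast 2.74). PTGS1, which codes for cyclooxygenase 1, was called below WT in A1 alone (-1.91), with -0.10 in A12 and a contrast of 2.40.

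The opposite class held genes in which the A12 change and the sum of the single changes differed in sign. The sums were -1.84 for LIMS2, -1.71 for RBM24, -1.59 for TNFRSF6B, 1.78 for ADGRF1, 0.15 for LMAN1 and 0.25 for DPYSL3. In TNFRSF6B and LMAN1 neither single change was called, and DPYSL3 was called lower in A2 (-0.22) as in A12 (-4.13). LIMS2, a focal adhesion protein (chr2:127638381-127681786), had 1.80, 1.48 and 3.09 CPM in WT, 0.830, 1.11 and 1.35 in A1, 1.10, 1.15 and 1.19 in A2, and 12.0, 14.6 and 12.4 in A12. It was called below WT in A1 (-0.95) and A2 (-0.89) and above it in A12 (2.61), with a contrast of 4.45 ± 0.343 (edgeR, adjusted p = 2.36e-06). RBM24, an RNA-binding splicing regulator of muscle, had 6.01 to 8.87 CPM in WT, 5.19 to 5.79 in A1, 2.77 to 3.45 in A2 and 28.9 to 51.7 in A12 (contrast 4.12). TNFRSF6B, a decoy receptor for Fas ligand that overlaps a readthrough transcript of its neighbor RTEL1, had 93.9 to 141 CPM in A12 and 7.87 to 16.2 in the single knockouts. Its WT libraries ran from 8.23 to 41.5, the highest being passage 29, and its contrast of 4.09 was 2.92 at the lowest when 1 library was left out. ADGRF1, an adhesion G protein-coupled receptor (chr6:46997708-47042350), had 29.3, 28.9 and 30.01 CPM in WT, 33.8, 31.0 and 27.4 in A1, 93.8, 98.2 and 97.5 in A2, and 1.93, 1.42 and 1.36 in A12 (contrast -6.00 ± 0.160; edgeR, adjusted p = 3.56e-10). LMAN1, a cargo receptor between endoplasmic reticulum and Golgi, held 118 to 149 CPM in the 9 other libraries and 5.73 to 6.75 in A12 (contrast -4.50). DPYSL3, a cytoskeletal regulator, held 46.2 to 49.0 CPM in WT, 65.0 to 67.8 in A1, 40.9 to 41.8 in A2 and 2.69 to 2.81 in A12 (contrast -4.38). In ADGRF1, LMAN1 and DPYSL3 all A12 libraries lay below the 9 others.

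**Figure D2:**
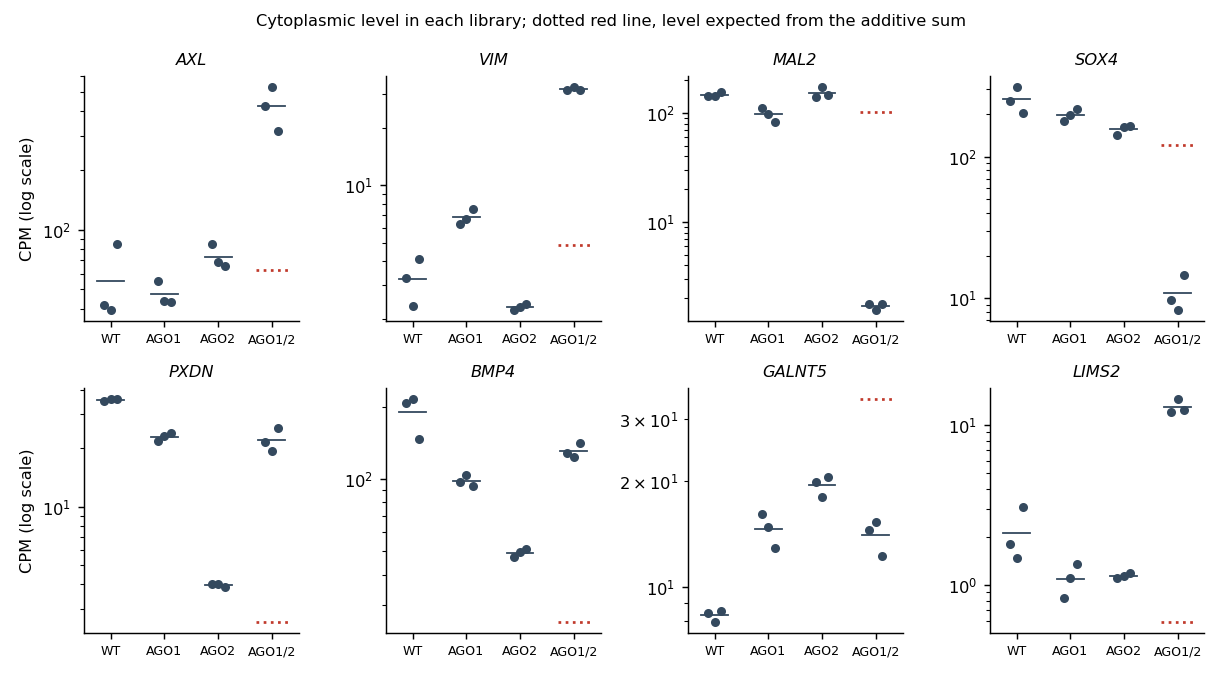
Level of 8 genes in each of the 12 cytoplasmic libraries, in CPM on a log scale; points are libraries, horizontal bars the mean of the 3 libraries of a group, and the dotted red line the additive level, the A1 mean times the A2 mean divided by the WT mean. A12 lies above the dotted line in AXL, VIM, PXDN, BMP4 and LIMS2 and below it in MAL2, SOX4 and GALNT5, while in PXDN, BMP4 and GALNT5 it stays within or near the range of the other groups.

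Some genes were on in one line and all but absent in another, and no fold is given for them. DCLK1, a kinase that marks tuft cells in the gut, had 77.6, 96.1 and 63.1 CPM in A12, 0.785 to 1.92 in WT, 0.553 to 0.817 in A1 and at most 0.0276 in A2. ANXA10, a calcium-binding annexin of gastric epithelium, had 23.3 to 27.9 CPM in WT and 48.7 to 50.6 in A1, and at most 0.108 in A2 and 0.0132 in A12. SLC1A3, a glutamate transporter, had 6.74 to 13.8 CPM in WT, 11.7 to 15.1 in A1, 27.8 to 31.6 in A2 and at most 0.102 in A12. TTN, the giant muscle protein titin, had 16.8 to 21.5 CPM in WT, 13.1 to 14.6 in A1, 0.372 to 0.730 in A2 and at most 0.0731 in A12. Thus ANXA10 and TTN were already low in A2, while the loss of SLC1A3 and the gain of DCLK1 were seen in A12 and not in either single line. On a log2(TPM + 1) scale the TTN contrast changed sign (0.43).

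Textbook targets of miRNAs that are abundant in colon cells were compared with the background of 19.0% of genes above and 18.0% below the additive level. The miRNAs below stand for their families, and are shown because their seeds define the target lists and the matches counted later. They are the human mature sequences of RefSeq, 5′ to 3′, with bases 2 to 8 in capitals.
miR-200c-3p: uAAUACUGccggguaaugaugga
miR-17-5p: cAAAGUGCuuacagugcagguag
miR-21-5p: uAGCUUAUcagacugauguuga
let-7a-5p: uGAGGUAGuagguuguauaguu

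Of 29 miR-200 family targets tested, 18 were above the additive level and 1 below, with a median contrast of 0.60 against -0.008 over all genes. In 14 of the 18 A12 was itself called above WT, and in 5 a single knockout was called below it. Over all 3289 genes above additivity these counts were 2190 and 1112. The miR-200 family holds down ZEB1, a transcription factor that represses epithelial genes (chr10:31318495-31529814). ZEB1 had 5.30, 4.98 and 4.69 CPM in WT, 8.95, 8.01 and 7.31 in A1, 5.23, 5.61 and 5.75 in A2, and 26.0, 24.4 and 22.7 in A12, all A12 libraries being above the rest. The additive level was 8.97 CPM and the contrast 1.44 ± 0.133 (edgeR, adjusted p = 9.15e-06). WASF3, an actin regulator, was below WT in A1 (-1.40) and above it in A2 (0.44) and A12 (0.76), with a contrast of 1.72. LEPR, the leptin receptor, had 17.9 to 22.0 CPM in A12 and 7.75 to 10.8 elsewhere (contrast 1.35). KLF9, a Krüppel-like factor, had a contrast of 1.38 close to the threshold (edgeR, adjusted p = 0.0479), which was 0.72 and not called without WT passage 29 and was lost in 8 of the 12 fits that left out a library.

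Among 32 miR-17 family targets, 14 were above and 2 below additivity (median contrast 0.29). CCND1, cyclin D1 (chr11:69641156-69654474), had 728, 660.1 and 624 CPM in WT, 618, 549 and 537 in A1, 868, 751 and 808 in A2, and 1547, 1802 and 1441 in A12, against an additive 686 (contrast 1.22 ± 0.136; edgeR, adjusted p = 3.81e-05). BCL2L11, the cell death protein BIM, had 28.8 to 29.98 CPM in A12, 19.8 to 20.1 in WT, 14.1 to 17.2 in A1 and 17.6 to 21.3 in A2 (contrast 1.0). DNAJC27 had 6.70 to 7.60 CPM in A12 and 3.32 to 5.12 elsewhere (contrast 1.22). SMAD7, an inhibitor of TGF-beta signaling that is also in the miR-21 list, had 4.37, 4.06 and 4.23 CPM in WT, 1.44, 1.54 and 1.61 in A1, 2.16, 2.06 and 1.83 in A2, and 7.76, 8.62 and 8.27 in A12. Both single knockouts thus lay below WT and A12 above it (contrast 3.49 ± 0.147; edgeR, adjusted p = 1.80e-08).

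Of 27 miR-21 targets, 11 were above and 2 below the additive level (median contrast 0.18). In 6 of the 11 a single knockout was called below WT, against 1112 of all 3289 genes above additivity. RHOB, a small GTPase, had 104 to 164 CPM in WT, 64.5 to 78.5 in A1, 81.4 to 88.4 in A2 and 246 to 252 in A12 (contrast 2.38). TIMP3, an inhibitor of matrix proteases, had 4.29 to 5.65 CPM in WT, 1.88 to 2.53 in A1, 0.239 to 0.414 in A2 and 3.33 to 4.11 in A12, where its change of -0.39 was not called (contrast 4.52). MARCKS, an actin-binding substrate of protein kinase C, was low in A1 alone, at 9.30 to 12.2 CPM against 47.4 to 60.7 in WT and A2 and 59.0 to 72.8 in A12 (contrast 2.71). Of 38 let-7 targets, 12 were above and 6 below additivity (median contrast 0.09), the list closest to the background. THBS1, thrombospondin, was spread over 12.6 to 41.1 CPM in A12, overlapped WT (14.8 to 16.6) and had a contrast of 1.81. ACVR2A, an activin receptor, had 3.65 to 4.78 CPM in A12 and 14.1 to 17.5 elsewhere (contrast -1.65). IGF1R, the receptor for insulin-like growth factor 1, had 0.651 to 1.94 CPM in WT, 1.90 to 1.99 in A1, 2.40 to 3.64 in A2 and at most 0.0794 in A12, close to 0, so that its fitted contrast of -6.12 is no measure of size. MYC, a transcription factor that drives growth, had 297 to 322 CPM in WT, 337 to 385 in A1, 293 to 344 in A2 and 116 to 132 in A12 (contrast -1.62). The 4 target lists were taken from general knowledge of these miRNAs, and direct and indirect effects on their genes cannot be told apart in RNA levels.

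Seed matches of members of these lists are shown with the surrounding 3′ UTR, 30 bases in the sense of the transcript, with the match in capitals. They come from the GRCh38 reference and 1 annotated UTR a gene, and show where such a match lies, not that it is bound. No match was found in the UTR used for MARCKS (miR-21), for THBS1 and ACVR2A (let-7), or for ZEB1 and LEPR (miR-200), whose UTR in the transcript used is short.
WASF3, miR-200 seed match, chr13:26685977-26686006, plus strand: atccaaaaattctgggtcttttCAGTATTt
CCND1, miR-17 seed match, chr11:69652274-69652303, plus strand: tctaaaaccattccatttccaaGCACTTTc
SMAD7, miR-21 seed match, chr18:48920243-48920272, minus strand: atgagcatgtttagactttaacATAAGCTa
RHOB, miR-21 seed match, chr2:20449360-20449389, plus strand: atgatgtttacataaaagttctATAAGCTg
TIMP3, miR-21 seed match, chr22:32860387-32860416, plus strand: ttgcatatacccacatggggacATAAGCTa

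Seed matches were then counted over the 13238 tested genes with a 3′ UTR. The letters searched were the reverse complement of bases 2 to 8, CAGTATT for miR-200c, GCACTTT for miR-17, ATAAGCT for miR-21 and CTACCTC for let-7, on the transcript strand, with overlapping matches counted. These were found in the UTR of 15.5%, 20.1%, 7.83% and 9.28% of the genes. Genes with a miR-17 match had a median contrast of 0.092 with 1 match and 0.126 with 2 or more, against -0.019 without. For miR-19 (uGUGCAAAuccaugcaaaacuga, match TTTGCAC) the medians were 0.106 and 0.287 against -0.014. Over 17 families of colon cells, genes with a match had a higher median contrast than genes without in 17, by 0.023 to 0.14. The same was seen for families confined to other tissues, 7 of 7, by 0.007 to 0.119, among them miR-9 of the nervous system (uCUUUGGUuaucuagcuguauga, match ACCAAAG), with medians of 0.101 for 1 match, 0.189 for 2 or more and -0.010 without. UTR length moved with the contrast: the median was -0.085, -0.030, 0.029 and 0.106 over 4 length classes of near-equal size, from shortest to longest. Within these classes the median shift over the colon families was 0.015, 0.019, 0.025 and 0.050, and over the others 0.031, 0.054, 0.052 and 0.024. Families expected in colon cells and families of other tissues thus gave shifts of similar size, and no test was made. For the change in A12 against WT alone the median shift was smaller, 0.026 over colon families and 0.029 over the others.

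**Figure D3:**
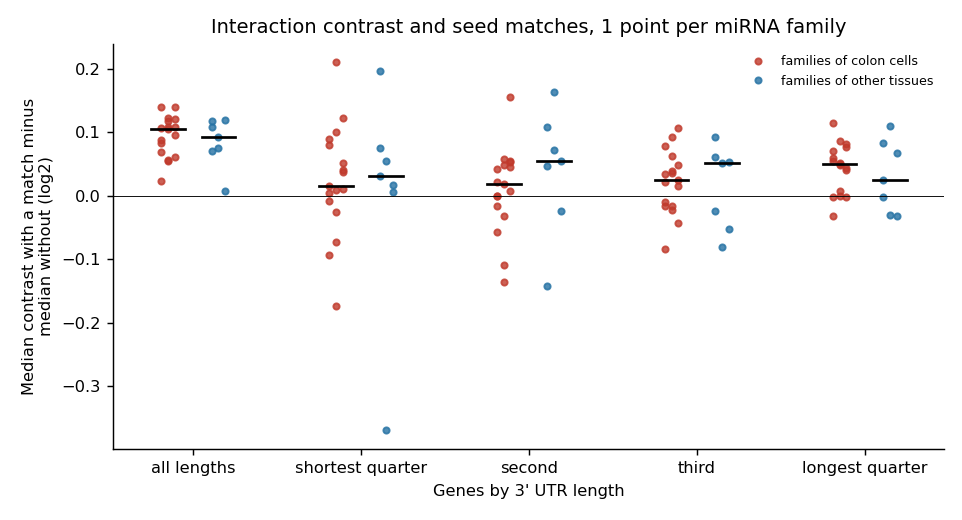
Each point is a miRNA family, and its height is the median interaction contrast of genes with a 3′ UTR match to the seed minus that of genes without, over all lengths and within 4 classes of UTR length; black bars are medians over families. All 24 families lie above 0 over all lengths, while within classes families of colon cells and of other tissues both scatter around small positive medians.

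In the cytoplasm, mesenchymal genes were more often called above the additive level than below it, and epithelial genes more often below than above. Epithelial cells are held together by E-cadherin, claudins and keratins, and lose them as mesenchymal genes such as VIM rise in epithelial to mesenchymal transition. Of 26 mesenchymal and matrix genes tested, 15 were above and 3 below the additive level (median contrast 0.98). In 8 of the 15 A12 was itself called above WT, against 2190 of all 3289 genes above additivity. SPARC, a matrix glycoprotein (chr5:151661096-151686975), had 2.31, 2.83 and 4.69 CPM in WT, 0.150, 0.224 and 0.583 in A1, 0.252, 0.207 and 0.603 in A2, and 3.36, 2.05 and 9.49 in A12. It was low in both single knockouts, while A12 overlapped WT (contrast 7.16 ± 0.921; edgeR, adjusted p = 1.05e-04). CCN2, a matricellular growth factor, had 1.71 to 3.25 CPM in WT, 0.956 to 1.27 in A1, 0.731 to 0.928 in A2 and 5.81 to 12.5 in A12 (contrast 4.37). The list also held COL13A1 and VIM, described above. Against this direction, the 3 mesenchymal genes below additivity were SNAI2 (contrast -2.75), ACTA2 (-1.24) and COL12A1 (-1.01). Of 37 epithelial junction and keratin genes, 5 were above and 11 below (median contrast -0.29). In 9 of the 11 A12 was called below WT, against 2314 of all 3118 genes below additivity. CDH1, E-cadherin (chr16:68737292-68835537), had 53.9, 60.3 and 97.5 CPM in WT, 23.99, 28.6 and 35.4 in A1, 44.3, 46.1 and 55.2 in A2, and 6.78, 6.24 and 12.1 in A12, below the additive 20.2 (contrast -1.27 ± 0.371; edgeR, adjusted p = 0.0183). EPCAM, an epithelial adhesion protein, had 90.8 to 103 CPM in A12 and 196 to 260.3 elsewhere (contrast -1.28). ESRP1, which drives epithelial splicing and lies on chromosome 8, had 22.9 to 37.4 CPM in A12 and 107.9 to 230.0 elsewhere (contrast -1.73). RAB25, a GTPase of epithelial recycling, had 11.2 to 17.8 CPM in A12 and 39.8 to 50.8 elsewhere (contrast -1.63). Against this direction, ITGB4, the beta 4 integrin of hemidesmosomes, had 559 to 877 CPM in A12 and 145 to 355 elsewhere (contrast 2.53), and the keratin KRT80 had 14.8 to 22.7 CPM in A12 and 0.920 to 7.32 elsewhere (contrast 3.62, 2.30 without WT passage 29, its highest WT library). KRT18 overlapped between A12 and WT (contrast 0.46) and was not called in 6 of the 12 fits that left out a library. Without WT passage 29, 20 epithelial genes were below additivity and 3 above, and the mesenchymal counts were 15 above and 3 below.

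**Figure D4:**
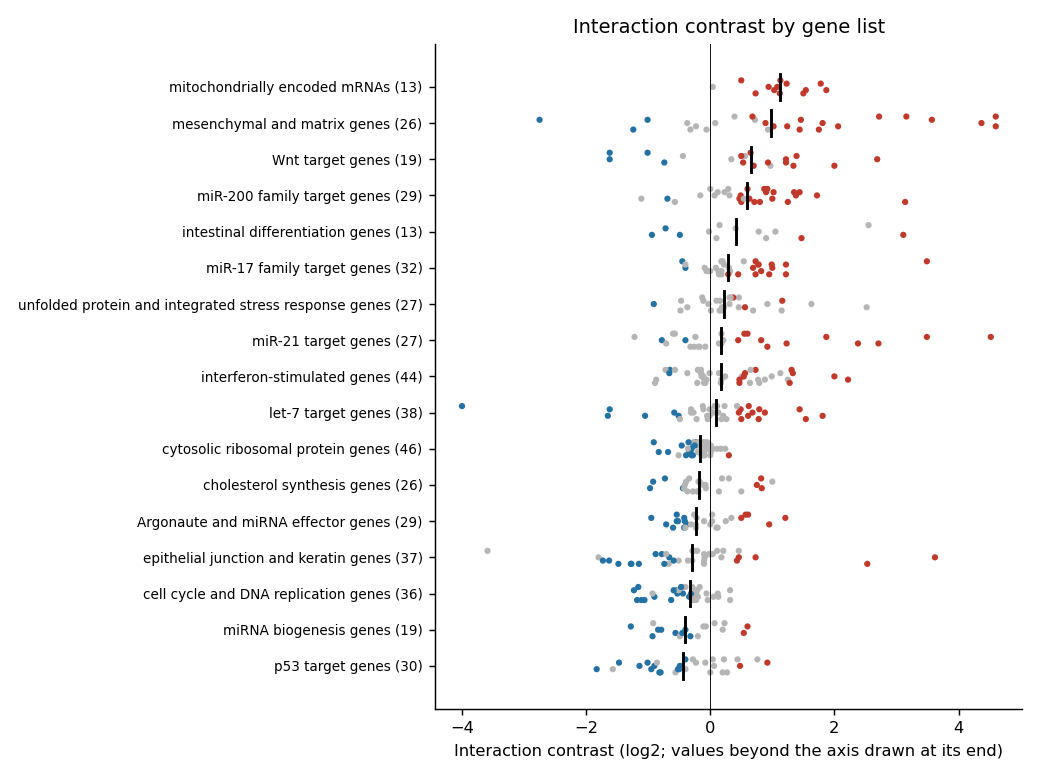
Interaction contrast of each tested member of the gene lists with at least 10 tested members (number in brackets), on the log2 scale; red and blue points were called above and below the additive level, gray points were not called, and black bars are list medians. Mitochondrially encoded messengers, mesenchymal genes, Wnt targets and miR-200 targets have the highest medians, and p53 targets the lowest.

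Wnt target genes are switched on by beta-catenin, which is mutant and active in HCT116 cells. Of 19 tested, 11 were above and 4 below additivity (median contrast 0.65). NOTUM, a secreted Wnt antagonist, had 6.13 to 10.1 CPM in WT, 2.15 to 3.10 in A1, 5.28 to 5.51 in A2 and 11.8 to 12.8 in A12 (contrast 2.69). SP5, a transcription factor, had 1.88 to 2.54 CPM in A12 and 0.457 to 1.08 elsewhere (contrast 2.0). In 7 of the 11 a single knockout was called below WT, and in 5 A12 was called above it. Over all 3289 genes above additivity these counts were 1112 and 2190. TNFRSF19 had 1.26 to 1.90 CPM in WT, 1.45 to 1.49 in A1, 0.385 to 0.579 in A2 and at most 0.199 in A12 (contrast -1.62). The others below additivity were MYC (-1.62), CTNNB1, the gene of beta-catenin (-1.01), and NKD2 (-0.74).

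Cell cycle and DNA replication genes were mostly below the additive level where they were called. Of 36 tested, edgeR called 0 above and 14 below (median contrast -0.32). Of the 14, 12 were called below WT in A12, against 2314 of all 3118 genes below additivity. Above additivity, 1 gene of the list passed at an unadjusted p of 0.05 and 1 was called by DESeq2. The MCM proteins form the replicative helicase. MCM5 had 180, 184 and 129 CPM in WT, 217, 199.8 and 208 in A1, 224, 196 and 205 in A2, and 118, 107 and 113 in A12 (contrast -1.23 ± 0.161; edgeR, adjusted p = 1.23e-04). MCM2 had 115 to 132 CPM in A12 and 163 to 260.0 elsewhere (contrast -1.18), and MCM6 100.4 to 113 against 161 to 229 (contrast -1.16). RRM1, the large subunit of ribonucleotide reductase, had 73.3 to 81.9 CPM in A12 and 142 to 193 elsewhere (contrast -1.11). In MCM2, MCM5 and MCM6 the lowest WT library was passage 29.

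The p53 protein is wild type in HCT116. Of 30 of its targets tested, 2 were above and 12 below additivity (median contrast -0.44). In 11 of the 12 a single knockout was called above WT, while A12 was called below WT in 4. Over all 3118 genes below additivity these counts were 579 and 2314. The median change against WT was 0.48 in A1, 0.08 in A2 and 0.12 in A12. DDB2, a DNA damage sensor, had 25.1, 22.5 and 28.3 CPM in WT, 54.5, 53.9 and 58.9 in A1, 30.4, 30.9 and 30.8 in A2, and 19.5, 17.6 and 19.9 in A12 (contrast -1.83 ± 0.118; edgeR, adjusted p = 6.83e-07). FDXR, a mitochondrial electron carrier, had 71.3 to 81.4 CPM in A1 and 27.3 to 42.2 elsewhere (contrast -1.47). RRM2B, the p53-induced subunit of ribonucleotide reductase on chromosome 8, had 137 to 154 CPM in A1 and 62.3 to 84.3 elsewhere (contrast -1.14). XPC, a nucleotide excision repair factor, had 20.6 to 26.4 CPM in A12 and 29.6 to 46.8 elsewhere (contrast -1.01).

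The genes of the miRNA pathway itself were more often called below than above additivity in the cytoplasm. Of 19 biogenesis genes, 2 were above and 9 below (median contrast -0.40). HSP90AA1, the chaperone that helps load AGO, had at most 2733 CPM in A12 and 3264 to 5253 elsewhere (contrast -1.28). XPO5, which exports miRNA precursors, had 73.9 to 78.8 CPM in A12 and 99.6 to 149 elsewhere (contrast -0.84). DIS3L2, a nuclease of tailed let-7 precursors, had 16.8 to 18.2 CPM in A12 and 21.8 to 28.6 elsewhere (contrast -0.93), and DDX5, a cofactor of DROSHA, 248 to 295 against 307 to 482 (contrast -0.79). Of 29 AGO and effector genes, 5 were above and 10 below (median contrast -0.23). AGO4 and AGO2 led those above. DCP1B, a cofactor of decapping, was above WT in A1 (0.70) and below it in A12 (-0.31), with a contrast of -0.95, and the helicase MOV10 was below WT in A12 (-0.56; contrast -0.71). In nuclei the effector list had 9 above and 5 below (median 0.13) and the biogenesis list 2 above and 4 below (median -0.07). Over all genes tested in nuclei, 20.6% were above and 16.9% below. HSP90AA1 has processed copies elsewhere in the genome that can share reads.

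Other lists are given beside the background of 19.0% of genes above and 18.0% below additivity. Counts near these shares are no result about a list. Of 44 interferon-stimulated genes, 10 were above and 2 below (median contrast 0.18). CMPK2, a nucleotide kinase of the antiviral response, had 2.95 to 3.41 CPM in A12 and 0.713 to 1.08 elsewhere (contrast 2.0), and IFI6 10.5 to 17.7 against 3.93 to 9.93 (contrast 1.31). BST2 and IRF9 overlapped between A12 and WT (contrasts 2.22 and 1.28) and were not called without WT passage 29 (1.64 and 0.87), nor in 5 and 6 of the 12 fits that left out a library, that one included. Of 26 cholesterol synthesis genes, 3 were above and 4 below (median contrast -0.18). INSIG1, which retains the sterol sensor in the endoplasmic reticulum, had 18.0 to 23.9 CPM in WT, 31.8 to 40.2 in A1, 46.1 to 52.1 in A2 and 107 to 187 in A12 (contrast 0.83), and was not called in 6 of the 12 fits that left out a library. DHCR7 was above WT in all 3 lines, by 0.74, 0.65 and 0.47 (contrast -0.92). SQLE on chromosome 8 had a contrast of -0.97, and STARD4 one of 0.82 close to the threshold that 8 of those 12 fits did not call, at 0.51 without WT passage 29 (edgeR, adjusted p = 0.0452). Of 27 unfolded protein and integrated stress response genes, 3 were above and 1 below (median contrast 0.22): DNAJB9 had a contrast of 1.16, XBP1 one of 0.56 and DNAJC3 one of 0.37, and SHMT2, a serine hydroxymethyltransferase, one of -0.91. Of 13 intestinal differentiation genes, 2 were above and 3 below (median contrast 0.41), among them HNF4A at 1.47, HNF4G at -0.94, GATA6 at -0.72 and CDX2 at -0.49. The CDX2 contrast changed sign with transcript-length scaling (0.09) and was not called without A2 passage 8 (-0.43). Of 6 cancer-testis genes edgeR called 0 above (0 at an unadjusted p of 0.05, 1 by DESeq2) and 2 below, PRAME at -1.38 and MAGEB2 at -0.45.

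Messengers encoded by mitochondrial DNA were above the additive level in 12 of 13 and below in 0, as also at an unadjusted p of 0.05 and by DESeq2 (edgeR; median contrast 1.12). Summed over the 13 they made 95810 to 99750 CPM in WT, 74580 to 82700 in A1, 92430 to 101100 in A2 and 126500 to 182100 in A12, so that the A12 libraries did not overlap the others. MT-ND3, a subunit of respiratory complex I, had 1055, 1074 and 851 CPM in WT, 856, 735 and 601 in A1, 818.5, 991 and 859 in A2, and 2133, 2993 and 1615 in A12 (contrast 1.78 ± 0.276; edgeR, adjusted p = 3.89e-04). All A12 libraries lay above the 9 others. MT-ND5, of the same complex, had a contrast of 1.54. MT-ATP8 and MT-ND4L overlap neighboring genes on the same strand, and their contrasts of 1.87 and 1.5 may hold shared reads. In the libraries of cells lacking AGO1, AGO2 and AGO3 MT-ND3 had between 943 and 1328 CPM, below all A12 libraries. Cytosolic ribosomal protein genes, 46 tested, had 1 above and 14 below additivity (median contrast -0.17). In 13 of the 14 a single knockout was called above WT, against 579 of all 3118 genes below additivity. RPL7, RPL8 and RPL30, with the lowest contrasts (-0.91, -0.83 and -0.68), lie on chromosome 8, and among called genes RPL14 on chromosome 3 followed (-0.46). Ribosomal protein genes have many processed copies, with which reads can be shared. Of 8 nuclear-retained noncoding RNAs tested, 2 were above and 1 below: OIP5-AS1 (contrast 0.97), FTX (0.53) and MALAT1 (-0.67), the last above WT in all 3 lines with WT passage 29 the lowest library. The FTX call was lost in 8 of the 12 fits that left out a library.

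Position on the chromosomes moved with the contrast. Among genes with a mean of at least 1 CPM, 198 of 431 on chromosome 8 (45.9%) were called below the additive level, against 18.2% to 26.1% on the other nuclear chromosomes. The median contrast was -0.31 on chromosome 8 and between -0.10 and 0.08 on the others, and the median change against WT on chromosome 8 was -0.02 in A1, -0.01 in A2 and -0.40 in A12. Within the chromosome the shift was not even. From base 20000001 to 40000000 the median contrast was 0.25, from 60000001 to 80000000 it was -0.17, and in the windows of 20000000 bases from there to the end it was -0.62, -0.65, -0.68 and -0.75, with A12 medians of -0.61 to -0.69. In these last 4 windows, which hold AGO2, MYC, MAL2, ESRP1, SQLE, RRM2B, RPL8 and RPL30, 37, 29, 29 and 57 genes were called below and 2, 1, 2 and 4 above. The copy number of the region was not measured in these libraries, and its part in the result was not tested.

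**Figure D5:**
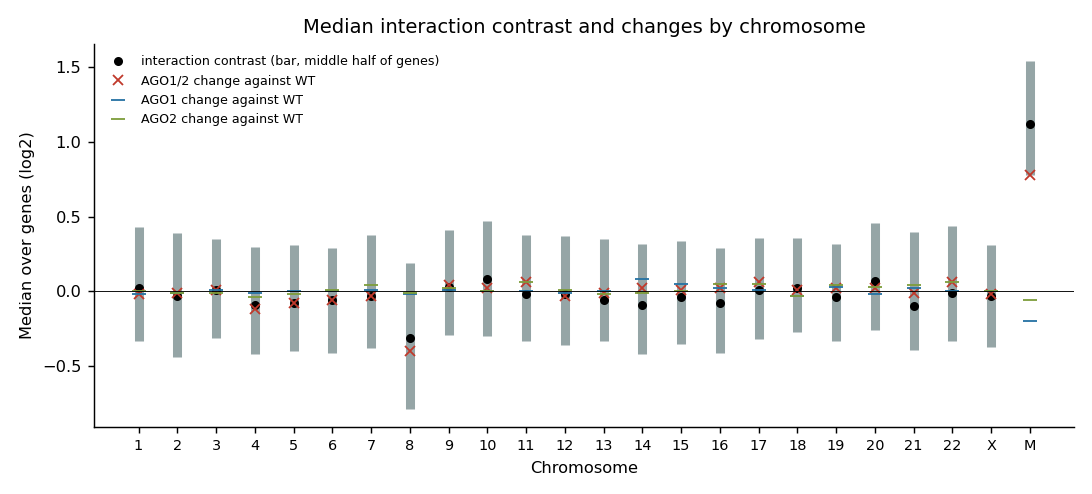
Median interaction contrast by chromosome (black points, with gray bars from the lower to the upper quartile of genes) and median log2 changes of A12, A1 and A2 against WT, for genes with a mean of at least 1 CPM. Chromosome 8 has a median of -0.31 and the mitochondrial genome (M) one of 1.12, while the other medians lie between -0.10 and 0.08.

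The same contrast was computed in nuclear libraries of the same 4 lines and passages. Of 18532 genes tested there, 6944 (37.5%) were called, 3813 (20.6%) above the additive level and 3131 (16.9%) below it. Of the genes called in the cytoplasm and tested in nuclei, 5859 of 6274 (93.4%) had the same sign in nuclei, against 77.5% of all genes tested in both, and 4118 were called in both with the same sign, which is 65.6% of the cytoplasmic and 62.0% of the nuclear calls. Tested directly, the contrast differed between cytoplasm and nuclei in 250 of 19880 genes (1.26%), 206 with a higher value in the cytoplasm and 44 with a lower one. The fit for this count did not pair the fractions of a line and passage. The count was 1875 with line and passage as a replicate block and 694 with DESeq2, so it depends on the fit. Mitochondrially encoded messengers, with a nuclear median of -0.34 and 0 nuclear calls above additivity by edgeR, at an unadjusted p of 0.05 or by DESeq2, included genes of this kind, as the contrast of MT-ND3 was 1.78 in the cytoplasm and -0.39 in nuclei. Cell cycle genes had a nuclear median of -0.02, against -0.32 in the cytoplasm, with 3 above and 8 below. The epithelial list had a nuclear median of -0.07, against -0.29 in the cytoplasm, with 7 of 36 above and 11 below. For the mesenchymal list the nuclear median was 1.55, against 0.98, with 16 of 24 above. The lists of miR-200 targets (0.60 in both) and p53 targets (-0.42 and -0.44) had nearly the same nuclear and cytoplasmic medians, and so did chromosome 8 (-0.24 and -0.31), while those of the effector and biogenesis lists were higher in nuclei. The fractions share lines and passage numbers, so nuclear values are not an independent set of lines. Whether both fractions of a passage came from the same culture is not given in the sources used here.

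Cytoplasmic libraries of a further line, with the genotype AGO1-/-, AGO2-/-, AGO3-/-, were set beside A12 as levels only. MAL2 had 1.83, 1.82 and 1.78 CPM in them, RECQL 2.02, 2.31 and 2.21, LMAN1 5.97, 6.29 and 5.92, DPYSL3 2.72, 3.12 and 3.08, and VIM 35.5, 32.9 and 30.1, all close to the A12 levels given above. AXL, at 281, 279 and 294 CPM, was below the 3 A12 libraries, and so was DCLK1, at 44.2, 42.5 and 40.7. The median change of chromosome 8 genes against WT was -0.37 there and -0.40 in A12. HSP90AA1 had 3901, 3885 and 2859 CPM in this line, above the A12 maximum of 2733. Whether this line was derived from the A12 line is not given in the sources used here.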

How the data were processed

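RNA was harvested by the authors from cytoplasmic and nuclear fractions, and ribosomal RNA-depleted, stranded libraries were sequenced as paired ends. The submitters' notes name STAR 2.5.3a, Salmon 0.11.0, DESeq2 and hg38. The estimated counts deposited by the authors are reads Salmon assigned to each transcript, not normalized. The deposited TPM values were scaled by the authors to a fixed total per library, after division by effective length.

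Transcripts were matched without version to GENCODE release 44 (97.82% matched; the others held 2.23% to 2.71% of the reads of a library). Counts were summed per gene and rounded. The 12 cytoplasmic libraries, with groups from the titles, were fitted with edgeR 4.0.16 in R 4.3.3 (TMM, filterByExpr with a minimum count of 10, quasi-likelihood test, contrast A12 - A1 - A2 + WT). A standard error is that of the contrast. Alternatives used DESeq2 1.42.0, limma 3.58.1 on log2(TPM + 1) and log2(TPM + 0.1), other size factors, filters, scalings and sets of libraries. Simulated data for this contrast were run on 17336 genes. There, 85 of 100 genes changed by 1 on the log2 scale and 18 of 100 changed by 0.5 were recovered, with 20 false calls among 12950 unchanged genes. The changed and unchanged genes came only from those with a mean of at least 50 reads and without large single knockout changes. The other genes kept their fitted A12 level, so these rates do not cover genes of low level. Counting error is small beside the spread between passages except in genes of low level.

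The groups, lists and rule for naming genes were chosen with earlier results of these data known. The rule named AGO1 to AGO4. It named, among called protein-coding genes with at least 1 CPM in each group, the 5 with the largest contrast in each beyond and short class and the 3 in each opposite class. It also named up to 4 called members of each list and up to 4 genes at or below 0.1 CPM in a group. A UTR was that of the coding transcript with the highest WT TPM, which in ZEB1 and LEPR is a short one without a miR-200 match. Nuclear libraries of the triple knockout and the eCLIP samples were not used here.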

Additional observations from a re-analysis of the deposited data

Results flagged for a closer look

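Groups of 3 libraries are too small for a test of single outlying libraries. The contrast differed between cytoplasm and nuclei in 250 genes by edgeR's quasi-likelihood test of the difference itself (2722 at an unadjusted p of at most 0.05). Of the genes named here 10 were among them, in a fit that did not pair the fractions by line and passage. The difference, cytoplasm minus nuclei, was 2.30 for MT-ND3 (edgeR, adjusted p = 0.00162), 2.09 for MT-ATP8, 1.89 for MT-ND4L and 1.52 for MT-ND5. It was 1.15 for DNAJC27, 0.79 for OIP5-AS1 and 1.04 for AGO1, whose contrast was 0.12 in the cytoplasm and -0.80 in nuclei. Below the nuclear value were LMAN1 (-1.47), RECQL (-1.49) and IGF1R (-4.25), with nuclear contrasts of -2.90, -2.50 and -1.75. IGF1R was close to 0 in cytoplasmic A12, so its value is no measure of size.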

How the results depend on the processing

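Of 106 named genes, 90 kept their direction and their side of the threshold under all 21 alternatives. The contrast of CDX2 took the opposite sign with length-scaled counts (0.09), limma on log2(TPM + 1) (0.09) and log2(TPM + 0.1) (0.11), and that of TTN with limma on log2(TPM + 1) (0.43) and log2(TPM + 0.1) (1.03). The interaction count was 6743 with DESeq2, 6372 with RLE size factors, 5967 to 6022 with other filters on low counts, and 4766 and 4967 with limma on log2(TPM + 1) and log2(TPM + 0.1). In these last 2 fits short of additive genes numbered 1035 and 1053, opposite genes 2046 and 2077, genes called in the double knockout alone 1960 and 2067 and plateau genes 313 and 269, and genes over 2-fold were 657 with log2(TPM + 1). The cause was not tested. Restricted to genes whose sum passed the test, a setting chosen after seeing the data like those without chromosome 8 genes and the lists without WT passage 29, beyond, short and opposite genes numbered 107, 378 and 383. Leaving out each library in turn gave 5413 to 6688 interaction calls (2798 to 3370 higher, 2582 to 3318 lower, 1861 to 2296 over 2-fold), 1221 to 2164 beyond, 417 to 861 short, 3696 to 4184 opposite, 2861 to 3807 double knockout alone and 47 to 108 plateau genes, the plateau count being 57 without A12 replicate 9, 47 and 50 without A1 replicates 6 and 7 and 54 without A2 replicate 8. The nuclear count was 6000 to 7620. The count differing between fractions was 694 with DESeq2 and 1875 with line and passage as a replicate block. Between fractions, the same-passage correlation of deviations from group means ran from -0.026 (A12 passage 9) to 0.404 (WT passage 29). The check used needed a correlation above 0.1 for every line and passage, which was not met. That does not show that the fractions are unpaired, and the main count of 250 comes from a fit without the pairing. Within the cytoplasm no paired analysis was possible, because WT shares no passage number with the edited lines there. With reads thinned to equal depth the interaction count was 5980.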
